A study of Junco hyemalis with 48 samples.

Results

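In the dark-eyed junco (Junco hyemalis), a songbird, white tissue of regrowing tail feathers was compared between 2 places in the tail of the same bird. One tissue was the sixth rectrix, R6, the outermost tail feather, which is white along its whole length and was frozen whole. It was set against the white part of the fourth rectrix, called R4 white here, which was cut away from the dark part of that feather before freezing. The comparison took every library labelled apigmented from either of these positions, taken from birds that had both. This gave 22 of the 24 libraries with those labels, out of 48 in the series, from 6 of the 7 birds. R6 had 11 libraries and R4 white had 11, and 5 of the birds had a left and a right feather of each kind. Bird C had no R4 white library, so its R6 libraries were left out, and bird E had a left feather only. All feathers were regrown after plucking and collected on day 14, and the labels used here give neither age nor sex. Both tissues lack visible pigment. Position in the tail and dissection change together between them and cannot be told apart in this comparison. The inner dark feather R2 (9 libraries, frozen whole) and the dark part of R4 (R4 dark, 11 libraries, dissected) of the same birds entered the same model. They served as the whole feather and the dissected part of dark tissue, with R2 lying inward of R4 and R6 outward.

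A growing feather is a tube of epidermis around a core of living pulp, which carries blood vessels and connective tissue. Keratinocytes of the follicle's growth zone form barbs and barbules, fill with feather keratins and die as they harden. Melanocytes in the same epidermis hand melanin granules to the barb cells of dark feathers, and white plumage forms where that supply is missing. A whole pin feather holds the cell types present anywhere in it, whereas a dissected part holds those of its own portion.

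The table deposited by the authors lists gene models as the letter g with a number and pairs none of them with a gene name. Tissue identity could therefore not be checked against markers, no function is given to any gene model, and only 2 gene models in each direction are named. Copies and overlapping gene models could not be recognised either, so values of such gene models are uncertain. Library totals lay between 17.24 M and 41.57 M counts in R6 and between 12.99 M and 53.46 M in R4 white. After left and right were summed, the median profile held 51.8 M and 45.2 M, and the median tested gene model had between 252 and 1129.5 counts per profile.

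Some of the profiles stood apart. The R4 dark profile of bird B held 4.31 CPM (counts scaled to library size, per M) of gene model g3235, described below, where the R4 dark parts of the other birds held 54.3 to 96.2 CPM. This profile is not part of the contrast, but it shares the model's estimate of the spread and the term for bird B. The R4 white part of bird A had 22.9% of its counts in its 20 most abundant gene models, the highest of the 6 birds. It also had the lowest quality weight of the 12 white profiles, 0.191, when each profile was weighted by how well it followed the model.

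Of 15886 gene models tested, 62 (0.39%) passed an adjusted p below 0.05 between R6 and R4 white. Most of them, 53 (0.334%), were higher in R6, and 9 (0.0567%) were lower. The 53 had a median log2 fold of 0.84, running from 0.25 to 2.56, and 21 of them differed by more than 1 on the log2 scale. The 9 had a median of -0.65, from -3.58 to -0.41, and 3 of them passed 1. The median over all tested gene models was -0.0005. In whole tissue, fewer cells of a type and less RNA per cell cannot be told apart, here and in all results that follow. The direction was the same in each of the 6 birds for 61 of the 62, which is no independent check since these birds gave the calls. Over all tested gene models, 4.71% were higher and 4.68% lower in every bird. The 6 R6 values lay wholly above the 6 R4 white values in 20 of the 53, against 0.371% of all tested, and wholly below them in 2 of the 9, against 0.101%.

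**Figure D1:**
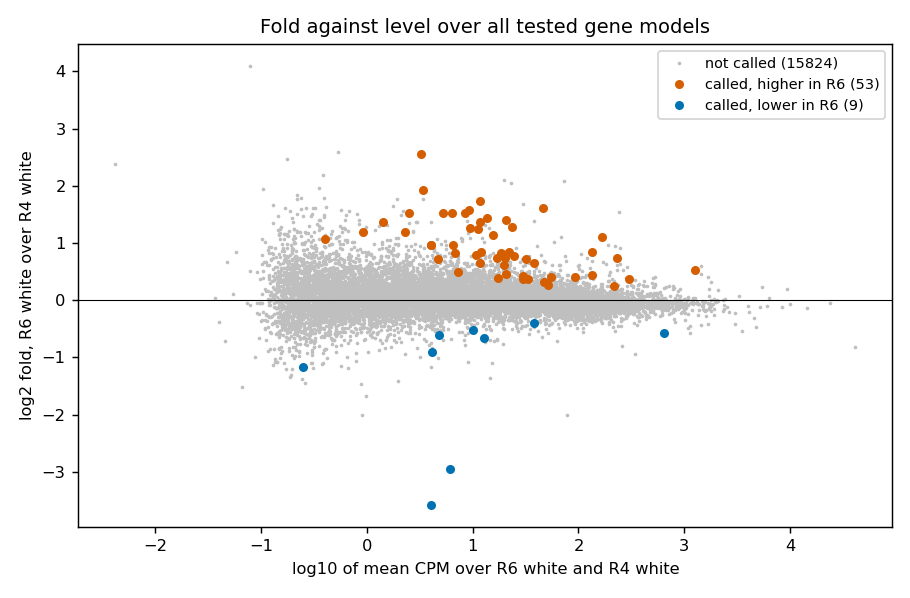
Each point is a gene model, with log10 of its mean CPM over both white tissues on the x axis and its log2 fold, R6 over R4 white, on the y axis. Orange points are the 53 called higher in R6, blue points the 9 called lower, and grey points those not called. The calls spread over most of the range of levels, and the folds furthest below 0 among them are those of 2 gene models at a few CPM.

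The count of calls depended on which birds and groups entered the fit. It was 27 without bird A, 168 without B, 14 without D, 32 without E, 19 without F and 11 without G. Without bird B the calls were 106 higher and 62 lower in R6, and 52 of the 62 gene models first called were among them. A fit of R6 and R4 white alone, where dark tissue has no part in the spread, called 22, of which 20 were higher, and 21 were among the 62. That fit had 2315 of 15345 gene models at an unadjusted p below 0.05, against 1907 of 15886 in the fit with dark tissue. Leaving the bird out of the model gave 6. DESeq2 called 141 higher and 48 lower, a less one-sided split, and contained 61 of the 62. At an unadjusted p below 0.05 the balance was the other way, with 872 gene models (5.49%) higher and 1035 (6.52%) lower in R6.

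**Figure D2:**
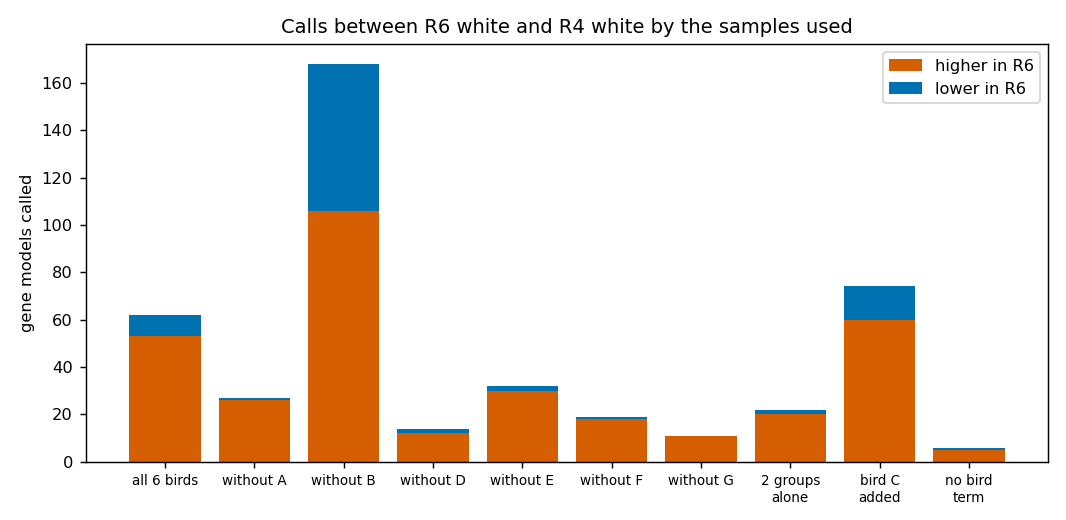
Bars give the number of gene models called between R6 and R4 white, stacked as higher (orange) and lower (blue) in R6, by the samples used. With all 6 birds there were 53 and 9. The bar without bird B reaches 168, and leaving out any other bird gives between 11 and 32.

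The gene model g16721 had the highest fold among called gene models that moved 1 way in all birds and averaged 1 CPM or more. In R6 its lowest, median and highest values over the 6 birds were 4.34, 5.06 and 7.71 CPM. In R4 white they were 0.304, 0.904 and 1.97 CPM. The groups did not overlap, and birds A and G had the R4 white values nearest to R6. The log2 fold was 2.56 (SE 0.36, adjusted p = 0.0040 in edgeR), with R6 above R4 white in 6 of 6 birds, by a mean of 2.61 ± 0.94 (SD, n = 6). Flipping the signs of the 6 differences in every way, a two-sided exact permutation test, gave p = 0.03125, the smallest possible with 6 pairs. Picking gene models that moved 1 way in all birds fixes this p beforehand, so it adds no support. At the level of single feathers, 11 R6 libraries held 2.33 to 8.09 CPM and 11 R4 white libraries 0.215 to 2.24 CPM. These are the same counts before summing, and the ranges nearly met within bird A. Its left feathers held 2.33 CPM in R6 (61 counts) and 2.24 CPM in R4 white (23 counts). Its right feathers held 6.71 CPM in R6 and 1.3 CPM in R4 white.

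In dark tissue g16721 was also higher in the whole feather. R2 held 8.44, 5.26, 5.69, 6.15 and 6.86 CPM in birds A, B, D, F and G, and R4 dark held 0.496, 0.407, 0.779, 2.95 and 1.73 CPM in those birds. Every R2 value was above every R4 dark value, bird E's at 0.802 CPM included. The log2 fold of R2 over R4 dark was 2.60 (SE 0.38, adjusted p = 0.0069 in edgeR). This dark call was lost without bird D (adjusted p = 0.128) or G (0.1), in the fit of R2 and R4 dark alone (0.366), in right feathers alone (0.386), with bird C added (0.0653) and without the bird term (0.0555). It was also lost in both alternatives chosen after seeing the data (0.115 and 0.232). The log2 fold lay between 1.84 and 3.05 in the alternatives where it was tested. The white step, R6 over R4 white, minus the dark step was -0.03 on the log2 scale (SE 0.52, adjusted p = 0.992). The call of g16721 between the white tissues held under 17 of the 18 alternatives in which it was tested. The exception was the fit of R6 and R4 white alone without bird B, with adjusted p = 0.121.

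The second named gene model higher in R6 was g7321. In R6 its lowest, median and highest values were 2.22, 5.53 and 9.19 CPM, and in R4 white 0.566, 1.06 and 3.08 CPM. The ranges overlapped, since bird G had 3.08 CPM in R4 white and bird B 2.22 CPM in R6, although R6 was higher within each of the 6 birds. The log2 fold was 1.92 (SE 0.35, adjusted p = 0.0196 in edgeR). Its mean per-bird difference was 2.03 ± 1.05 (SD, n = 6), largest in bird A at 3.92 and smallest in bird B at 1.08. In dark tissue the whole feather did not average higher. R2 averaged 1.48 ± 0.62 CPM (SD, n = 5) and R4 dark 1.72 ± 1.02 CPM (SD, n = 6). This was a log2 fold of -0.19 (SE 0.39, adjusted p = 0.99983). The difference between the white and dark steps was 2.11 (SE 0.53, adjusted p = 0.275), so the test of that difference was not passed. The call between white tissues was lost without bird A, D, E, F or G, with adjusted p of 0.0602, 0.159, 0.0847, 0.0673 and 0.119, in the fit of R6 and R4 white alone (0.0982), in left feathers alone (0.382) and without the bird term (0.24).

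The 2 gene models with the lowest folds, g3235 and g2687, were scarce in R6 and abundant in dark tissue. The values of g3235 in R6 were 0.234, 0.544 and 0.922 CPM at the lowest, median and highest, against 2.99, 3.81 and 24.0 CPM in R4 white. No R6 value reached an R4 white value, and bird F was far above the other birds in R4 white. This came from its right library, at 38.5 CPM. Its left library held 8.63 CPM, close to the left library of bird A at 8.37 CPM. The log2 fold was -3.58 (SE 0.69, adjusted p = 0.0323 in edgeR). The mean per-bird difference was -3.30 ± 1.43 (SD, n = 6), from -1.83 in bird E to -5.97 in bird F. In dark tissue g3235 stood at 105 to 124 CPM in R2 and at 4.31 to 96.2 CPM in R4 dark, where the lowest value is bird B's. R4 white of bird B, at 3.21 CPM, lay among the R4 white parts of the other birds.

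For g2687 the lowest, median and highest values were 0.172, 0.989 and 4.03 CPM in R6, against 2.99, 7.65 and 28.9 CPM in R4 white. The groups overlapped through bird E in R6 and bird G in R4 white, while R6 was lower within each bird. The log2 fold was -2.95 (SE 0.59, adjusted p = 0.0406 in edgeR), with a mean per-bird difference of -3.01 ± 1.35 (SD, n = 6). In dark tissue it stood at 109 to 132 CPM in R2 and at 9.22 to 108 CPM in R4 dark. Leaving out any bird but B ended both calls, at adjusted p from 0.0607 to 0.191 for g3235 and from 0.0787 to 0.28 for g2687. In the fit of R6 and R4 white alone the adjusted p was 0.0598 for g3235 and 0.0927 for g2687. The difference between the white and dark steps was -4.72 for g3235 (SE 0.88, adjusted p = 0.0664) and -4.04 for g2687 (SE 0.77, adjusted p = 0.0672).

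The SD over 6 birds was 0.32 CPM in R6 and 8.22 CPM in R4 white for g3235, and 1.36 CPM in R6 and 9.63 CPM in R4 white for g2687. SDs in CPM depend on the level. As a ratio, the highest R6 value of g2687 lay further above its lowest than the highest R4 white value did. For g3235 the ratio was larger in R4 white, at 2.99 to 24.0 CPM, than in R6, at 0.234 to 0.922 CPM. Over single libraries, g3235 ran from 0.115 to 0.993 CPM in R6 and from 1.42 to 38.5 CPM in R4 white, and g2687 from 0.172 to 4.04 CPM in R6 and from 0.309 to 42.9 CPM in R4 white. How much dark tissue each R4 white piece held was not measured, and its part in these differences was not tested.

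**Figure D3:**
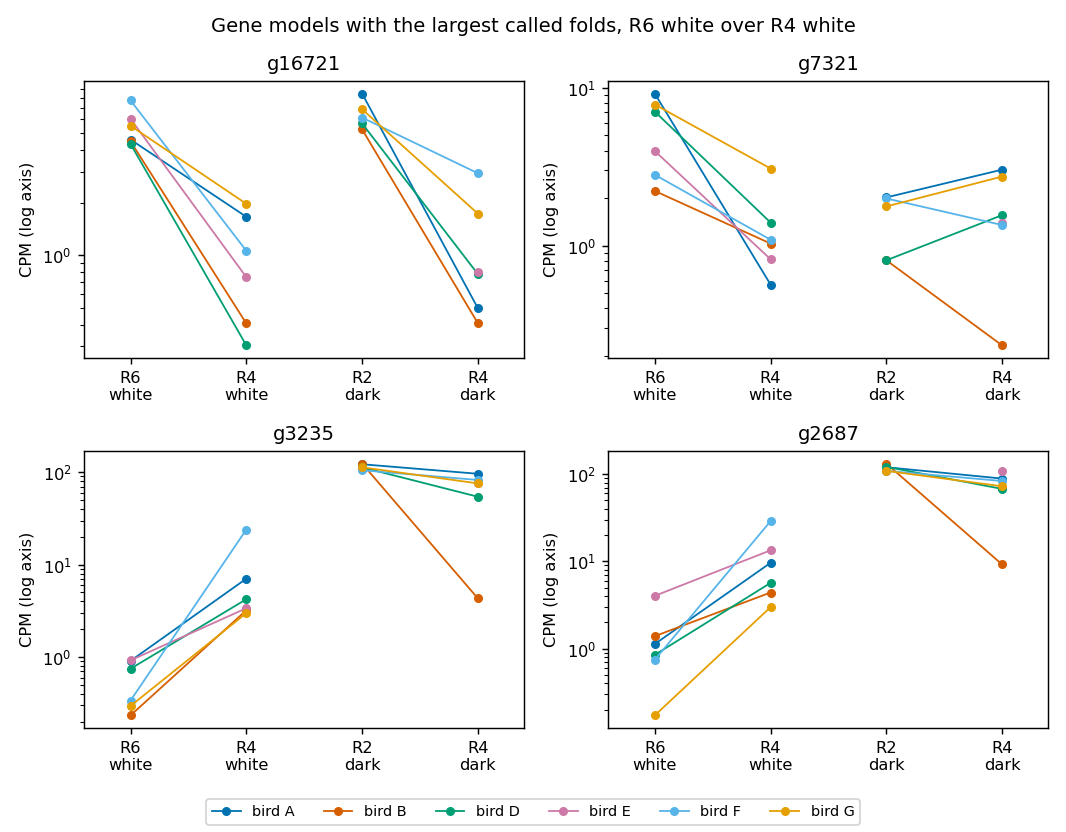
Each panel shows 1 gene model, with CPM on a log axis for R6 white, R4 white, R2 dark and R4 dark, and each line joins the 2 profiles of a bird, coloured by bird. The R2 dark feather stands about as high as R6 for g16721 and far above R6 for g3235 and g2687. The single low R4 dark value of g3235 is bird B, at 4.31 CPM.

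Within the extraction batches the named gene models kept their signs, which was fixed by picking them for 1 direction in all birds. The batch values below come from the birds that gave the calls, so they show sizes only. The mean log2 difference of g16721 was 2.39 in batch 1 (birds A and B), 3.65 in batch 2 (bird D), 2.14 in batch 3 (birds F and G) and 2.94 in bird E, whose feathers were extracted in different batches. For g7321 these values were 2.50, 2.30, 1.34 and 2.22. For g3235 they were -3.22, -2.43, -4.56 and -1.83, and for g2687 -2.34, -2.68, -4.50 and -1.72. The median over the 53 gene models was 0.92, 0.70, 0.98 and 0.73 in the same order.

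The 53 gene models higher in R6 were then read in dark tissue. There R2 over R4 dark also goes from a dissected part to a whole feather, and it shares no library with the white step. The white step runs outward in the tail and the dark step inward, so both pigment and position differ between them. The birds, the model and its estimate of the spread are shared. In the dark step 25 (0.157%) gene models were called in all, 19 (0.12%) of them higher in R2. Of these 19, 15 were among the 53, which is 28.3% of the white list and 78.9% of the dark one. The overlap depended on the samples and the method used. No gene model was called higher in R2 in the fit of R2 and R4 dark alone or in right feathers by edgeR (623 and 651 in either direction at an unadjusted p below 0.05), and 1 was called without bird D and 1 without bird G, each shared with the white list of that fit. Of those called higher in R2, 7 of 10 were shared without bird A, 10 of 16 without B, 13 of 18 without E and 11 of 16 without F. The share was 38 of 59 in DESeq2, 77 of 713 in limma with quality weights and 5 of 38 in left feathers alone. With bird C added it was 9 of 13, and without bird B's R4 dark profile 19 of 27. In the groups alone without bird B, chosen after seeing the data, it was 1 of 92. The log2 fold of R2 over R4 dark was above 0.5 for 25 of the 53, within 0.5 of 0 for 24 and below -0.5 for 4. Over all tested gene models 2.83% were above 0.5 and 2.63% below -0.5. The limit of 0.5 was chosen after the values were seen. It sorts by the size of the fold, not by a test, and several gene models within it had a dark fold close to their white one.

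The 25 gene models with a dark fold above 0.5 had a higher mean in R6 and in R2 than in either R4 part. So did 16 of the 24 with a dark fold within 0.5 of 0, and 2718 of all 15886 tested. The way the 25 were picked favours this order, so it is no test. In dark tissue 15 of them passed the test and 10 did not. The median log2 CPM over these gene models averaged 3.91 ± 0.28 (SD, n = 6 birds) in R6 and 2.63 ± 0.32 (SD, n = 6) in R4 white. In dark tissue it was 3.95 ± 0.30 (SD, n = 5) in R2 and 2.60 ± 0.56 (SD, n = 6) in R4 dark. The lowest R6 bird, D at 3.57, was above the highest R4 white bird, A at 2.99. In R4 dark, bird F was highest at 3.51. Their median log2 fold was 1.27 in white and 1.13 in dark tissue, and 16 of the 25 exceeded 1 in white tissue. These medians describe gene models picked by the same values, so they carry no test.

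The 24 gene models with a dark fold within 0.5 of 0 had a median log2 fold of 0.48 between R6 and R4 white and 0.11 between R2 and R4 dark. They were more abundant, at a median of 33.8 CPM in R6 and 25.6 CPM in R4 white, against 15.1 and 6.64 CPM for the 25. Small folds are called more readily at higher levels, so this is partly built in. R4 white had the lowest mean of the 4 tissues for 20 of the 24, for 17 of the 25 and for 4923 of all 15886 tested. The way these gene models were picked favours low R4 white values, so this is no test. Their median log2 CPM averaged 5.07 ± 0.11 (SD, n = 6) in R6 and 4.64 ± 0.18 (SD, n = 6) in R4 white, with 4.97 ± 0.07 (SD, n = 5) in R2 and 4.88 ± 0.12 (SD, n = 6) in R4 dark. The remaining 4 had a median log2 fold of 0.99 in white and -0.71 in dark tissue, where 1 of them passed the test. The difference between the white and dark steps passed for 3 of the 4, but such a difference is built into how these gene models were picked.

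**Figure D4:**
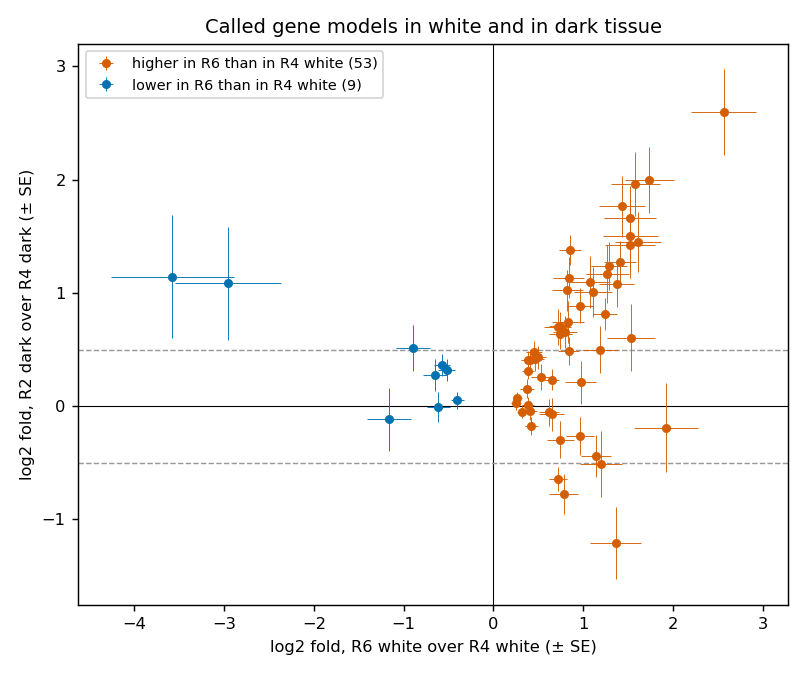
Each point is 1 of the 62 called gene models, with the log2 fold of R6 over R4 white on the x axis and that of R2 over R4 dark on the y axis, bars showing the SE of each. Dashed lines mark 0.5 and -0.5 in dark tissue. The orange points above the upper line are the 25 gene models with a dark fold above 0.5, of which 15 passed the test in dark tissue, and the blue points are those lower in R6.

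The test of the difference between the white and the dark step called 9 gene models (0.0567%). Pigment and direction along the tail cannot be told apart in it. For 7 of them (0.0441%) the white step was more positive, with a median log2 fold of 0.72 in white and -0.65 in dark tissue. For 2 (0.0126%) it was more negative, with medians of -0.55 and 0.34. Of the 53 gene models higher in R6, 4 were among these 9, and of the 9 lower in R6, 2 were. The white step is part of the tested difference, so this overlap is partly built in and is no support. The count was 66 without bird B, 63 without bird B's R4 dark profile alone, and between 1 and 4 when any other bird was left out.

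Among the 9 gene models lower in R6, 4 had a mean in both dark tissues above that in R4 white, g3235 and g2687 among them. Their median log2 CPM averaged 1.58 ± 0.54 (SD, n = 6) in R6 and 3.37 ± 0.76 (SD, n = 6) in R4 white, against 6.86 ± 0.10 (SD, n = 5) in R2 and 5.82 ± 1.21 (SD, n = 6) in R4 dark. The lowest R4 dark value, 3.39, belonged to bird B. The other 5 had median levels of 3.76 CPM in R6, 5.79 CPM in R4 white, 3.87 CPM in R2 and 3.68 CPM in R4 dark. The way the 4 and the 5 were picked favours these orders of the tissues, so they are no test.

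Several gene models higher in R6 carried neighbouring identifier numbers. Of the 53, 13 fell into 5 runs in which successive called gene models lay within 2 numbers of each other. Of all 150 tested gene models within 2 numbers of another one called higher, 8.67% were themselves called higher, against 0.334% over all tested. The run with 4 gene models had median levels of 15.7 CPM in R6, 5.19 CPM in R4 white, 19.1 CPM in R2 and 5.01 CPM in R4 dark, with log2 folds between 1.43 and 1.74 in white tissue. The run with 3 stood at 227 CPM in R6, 105 CPM in R4 white, 203 CPM in R2 and 103 CPM in R4 dark. One pair differed from these, with 11.2 CPM in R6, 5.4 CPM in R4 white, 3.77 CPM in R2 and 4.88 CPM in R4 dark. Whether the numbers follow the order of genes in the genome is not given in the sources used here, and parts of 1 gene listed separately could not be told from different genes.

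The calls were not confined to scarce or abundant gene models. By mean level over both white tissues, 3 of 2766 gene models under 1 CPM were called (0.108%), 20 of 4298 from 1 to under 10 CPM (0.465%), 31 of 6778 from 10 to under 100 CPM (0.457%) and 8 of 2044 at 100 CPM or more (0.391%). Of those at 100 CPM or more, 7 were higher and 1 was lower in R6. The folds of the higher gene models were largest between 1 and 10 CPM, with a median of 1.31, and had a median of 0.53 at 100 CPM or more. Scarcer gene models need a larger fold to be called, so this order is partly built in. Over all tested gene models the medians at these levels were 0.05 and -0.05.

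Left and right feathers gave separate libraries of the same birds. Left feathers alone called 10 gene models (0.0685%) and right feathers alone 13 (0.0882%). Each of the 10 had the same sign in right feathers, where their median log2 fold in the direction called was 1.13, against 1.28 in left feathers. The 13 called on the right also had the same sign on the left, with medians of 0.79 on the left and 1.10 on the right. Only 3 were called on both sides, 30.0% of the left list and 23.1% of the right one. Over 14514 gene models tested on both sides, 69.5% had the same sign.

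Outside bird A, the distance between R6 and R4 white was close to that between left and right feathers. The median absolute difference in log2 CPM between R6 and R4 white of the same bird and side lay between 0.142 and 0.444 over 11 pairs of libraries. Without bird A, whose pairs stood at 0.444 on the left and 0.326 on the right, the highest was 0.237. Between left and right libraries of the same tissue it averaged 0.164 ± 0.021 (SD, n = 5 birds) in R6 and 0.214 ± 0.038 (SD, n = 5) in R4 white. The left and right sides were closer to each other in R6 than in R4 white in 5 of 5 birds (a two-sided exact permutation test of the signs cannot reach 0.05 with 5 birds). This mean difference was -0.049, and -0.033 among gene models at a mean of at least 10 CPM. Libraries of R4 white were shallower, at a median of 18.6 M counts against 24.3 M in R6, and the part of depth was not tested. The SD over 6 birds was larger in R4 white for 70.2% of the tested gene models, with a median of 0.202 in R6 and 0.272 in R4 white on the log2 CPM scale. Dark tissue had the same order. Over birds A, B, D, F and G the median SD was 0.229 in R2 and 0.289 in R4 dark, beside 0.196 in R6 and 0.265 in R4 white.

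**Figure D5:**
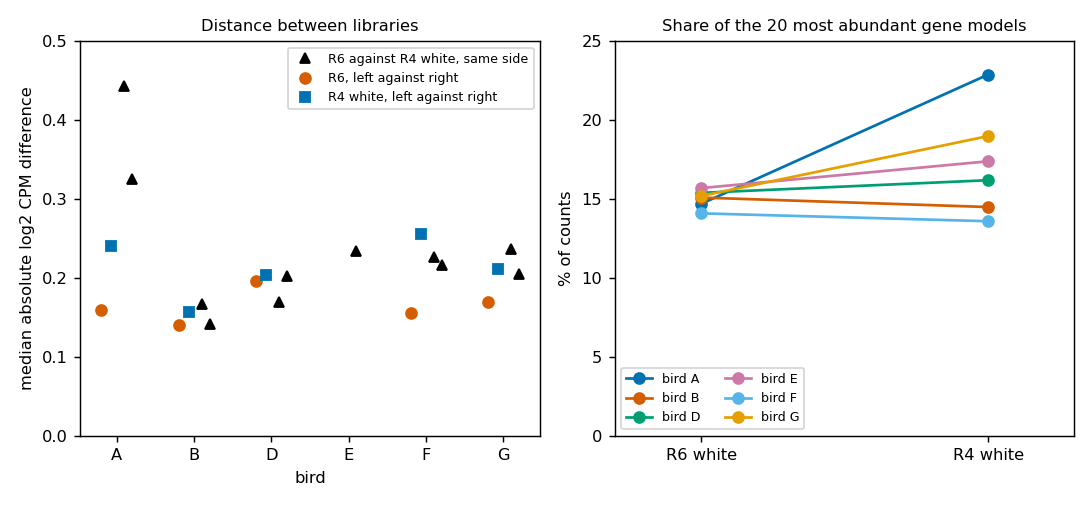
The left panel gives, for each bird, the median absolute log2 CPM difference between R6 and R4 white of the same side (triangles), between left and right R6 (circles) and between left and right R4 white (squares). The right panel gives the percent of counts held by the 20 most abundant gene models of each profile, with a line per bird. Bird A has the largest distances, 0.444 and 0.326, and the highest share in R4 white, 22.9%.

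The concentration of counts in a few gene models varied among R4 white parts and hardly among R6 feathers. The 20 most abundant gene models held 15.06% ± 0.60 of the counts in R6 and 17.25% ± 3.36 in R4 white (SD, n = 6 each). R6 was lower in 4 of 6 birds, by 8.14 percentage points in bird A, 3.72 in G, 1.66 in E and 0.732 in D, and higher in B and F. The mean difference of -2.19 points ± 3.32 (SD, n = 6) did not pass the same two-sided exact permutation test (p = 0.15625). Gene models at 1 CPM or more numbered 12937 to 13251 in R6 and 12489 to 13248 in R4 white, a mean difference of 197 ± 332 (SD, n = 6, exact permutation p = 0.1875). Without bird A it was 84.

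The differences between R6 and R4 white resembled each other only weakly from bird to bird. Across gene models, which are not independent replicates, the log2 differences of 2 birds correlated with a median r of 0.163 over 15 pairs of birds. Birds A and G (0.458) and A and E (0.447) were most alike, and A and F (-0.0203) and E and F (-0.00412) least. Pairs with bird B lay between 0.0672 and 0.177. Within a bird, differences measured on the left and on the right correlated with 0.603 in bird A, 0.168 in B, 0.132 in F, 0.121 in G and 0.0284 in D. These are descriptions, and the profiles and libraries behind them differ in depth.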

How the data were processed

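RNA from growing feathers was sequenced in 48 libraries. Libraries were stranded mRNA libraries read at 75 bp, per the labels' protocols. The submitters' processing notes name Trimmomatic 0.33, STAR 2.7.2b, featureCounts and Subread 1.6.0. The genome, the gene annotation and whether counting used strand are not stated there. Raw, unnormalized counts for 20808 gene models were deposited as 1 table, whose columns were matched by library name.

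Left and right counts were summed per bird and group. The 23 profiles of the 6 birds with both white tissues were fitted together with edgeR 4.0.16 in R 4.3.3 (TMM, default expression filter, quasi-likelihood F test with robust dispersion), with group and bird as terms. Calls had a Benjamini-Hochberg adjusted p below 0.05 over 15886 gene models, and all adjusted p-values are edgeR's unless another tool is named. CPM uses TMM-scaled totals, log2 CPM a prior count of 2, and SE is the fold divided by the root of F. The common biological coefficient of variation was 17.1%. DESeq2 1.42.0 and limma 3.58.1 (voom with quality weights) were alternatives. The fit was tested on simulated counts without differences between birds, so that test does not cover the pairing.

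Pairing is by animal. Deviations of a bird's 2 white profiles from the group means correlated across gene models with r from 0.287 to 0.578 in 6 of 6 birds. Between different birds the median was -0.0965. Deviations from a group mean cancel out over birds, which pushes that value negative, so it is no independent comparison. Apart from bird E, each bird lay within 1 extraction batch, so animal and batch are not told apart here. Over all 861 pairs of libraries in the fit, chi-square per gene model was at least 4.36, so no pair agreed within sampling noise. Named gene models are the 2 in each direction with the largest fold among called gene models that moved 1 way in all birds and averaged 1 CPM or more. The comparison, lists and rules were chosen with earlier results of these data known.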

Additional observations from a re-analysis of the deposited data

Results flagged for a closer look

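Among 23 groups of values per bird, 3 held a bird far from the others of its group. The limit used gives about 1 in 20 by chance, or 1.15, if values are normally distributed. All 3 are high values judged in CPM, not on the log2 scale of the folds. The number 3 against 1.15 therefore decides nothing. In R4 white, bird G had 3.08 CPM of g7321, with the next bird at 1.4 CPM. In R4 white, bird F had 24.0 CPM of g3235, with the next bird at 7.06 CPM. Its right library held 38.5 CPM and its left 8.63 CPM. In R6, bird E had 4.03 CPM of g2687, with the next bird at 1.39 CPM. By the test of the difference itself, 9 gene models changed differently from a dissected part to a whole feather in white and in dark tissue. These steps also run opposite ways along the tail.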

How the results depend on the processing

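Calls between R6 and R4 white numbered 62 (53 higher, 9 lower in R6). Upper-quartile factors and a mean of at least 5 CPM kept all 3 counts within 1.5 times. With no filter there were 40 calls, 4 of them lower. With bird C added there were 74, of which 14 were lower. DESeq2 gave 189 (141 higher, 48 lower) and limma with quality weights 381 (251 and 130). With no replicate block, that is without the bird term, there were 6 (5 and 1), against the paired 62. The groups compared alone gave 22 (20 and 2), left feathers 10 (8 and 2) and right feathers 13 (13 and 0). Leaving out only bird B's R4 dark profile gave 151 (114 and 37). Leaving out each bird gave 11 to 168 calls, 11 to 106 higher and 0 to 62 lower. Alternatives chosen after seeing the data gave 2 (2 and 0) for the groups alone without bird B, and 616 (284 and 332) with bird C added and bird B left out. In that last setting alone the lower gene models outnumbered the higher ones.

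Between R2 and R4 dark, the 25 calls became 85 in DESeq2, 1142 in limma, 2 with no replicate block, 40 in left feathers and 1 to 23 without each bird. In edgeR they became 0 in right feathers (651 at an unadjusted p below 0.05) and 0 in the groups alone (623), 119 in the groups alone without bird B, and 6 with bird C and without B. For the difference of the white and dark steps, 9 calls became 68 in DESeq2, 859 in limma, 21 with bird C added, 63 without bird B's R4 dark profile, 2 in left feathers, 1 to 66 without each bird and 291 with bird C and without B. In edgeR they became 0 with no replicate block (527 at an unadjusted p below 0.05) and 0 in right feathers (578). The cause was not tested.

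No named gene model changed direction, but each was picked for 1 direction in all birds and most alternatives reuse these birds. The call of g16721 was kept in 17 of 18 alternatives, of g7321 in 9 of 18, of g3235 in 9 of 19 and of g2687 in 8 of 19. The difference in the share of the 20 most abundant gene models (-2.768 to -1.001 without each bird), in gene models detected (84 to 271.2) and in left-right distance kept its sign in every alternative run, and passed its test in none, though with 5 or fewer birds that test cannot pass. Depth limits gene models under 1 CPM most.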
